A study of Mus musculus with 4 samples.

Results

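Basal keratinocytes of the mouse cheek lining were taken from 1 Xenium slide of healthy buccal mucosa by 2 adhesion genes. *Itgb4* encodes the integrin beta 4 chain and *Col17a1* the transmembrane collagen XVII, and both proteins anchor basal cells to the basement membrane in hemidesmosomes. A cell with at least 10 transcripts was taken when it held at least 4 transcripts of *Itgb4* and *Col17a1* together, and not fewer than of *Krt4* and *Tgm3*, which mark the suprabasal layers of oral epithelium. This gave 5517 cells of 62422 in the 7 buccal sections (8.84%), and 1.29% of the 426792 cells with at least 10 transcripts on the 4 slides of the series. Sections were separated by position alone, as cells chained within 100 µm. The sections held 370, 386, 1519, 1140, 30, 788 and 1284 of these cells. A further 15 cells that met the rule lay in smaller pieces of tissue and were not used.

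Xenium counts single RNA molecules in place with probes against a fixed panel, here of 328 genes, and assigns each to an outlined cell. The labels give the slide as buccal mucosa with the state healthy, the genotype Control and the treatment Vehicle, cut from paraffin at 5 µm, with male and female tissue on the same slide. Control animals in the study are littermates of the Tet-On TRE-*Pitx1*/*Krt5*-rtTA line fed normal chow, in which the *Krt5* promoter drives rtTA and the *Pitx1* transgene, under a tetracycline response element, is not induced. The age of the animals is not given in the sources used here, and neither are the sex and the animal of each section, so sections may share an animal and p-values measure the spread between sections. On this slide 8797668 gene transcripts reached a quality score of 20, with 98.35% of them inside cell outlines. Control codes, to which no gene is assigned, came to 0.0375% of that number. Median transcripts per cell were 96 to 159 in the basal cells of a section and 129 to 257 in the remaining epithelium.

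Stratified epithelia such as the cheek lining are renewed from their basal layer. Basal keratinocytes sit on the basement membrane, divide there, and express *Krt5* and the transcription factor gene *Trp63*. Cells that leave the layer stop dividing, exchange their keratins and desmosomal cadherins, and build cornified or parakeratinised layers from small proline-rich proteins and loricrin. Growth factors of the Wnt, BMP, TGF-beta, IGF, EGF and Notch families act between the layers and the connective tissue beneath.

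The label fitted most of the cells and not all of them. *Krt5* was found in 88.4% of the 5517 cells. In 4794 of them transcripts of 5 epithelial genes (*Krt5*, *Krt4*, *Tgm3*, *Itgb4* and *Col17a1*) outnumbered those of 10 genes of other cells (*Vim*, *Col1a1*, *Pecam1*, *Acta2*, *Des*, *Cd74*, *Cd52*, *Ncmap*, *Krt8* and *Krt18*), and these are called epithelial basal cells. Since that sum holds the genes of the rule, *Trp63* and *Krt15*, which stand in neither sum, were looked at beside it. *Trp63* was found in 82.8% to 91.0% of the epithelial basal cells of a section, in 42.0% to 52.6% of the remaining epithelium described below and in 5.16% to 11.6% of non-epithelial cells. *Krt15* was found in 50.4% to 85.5%, 17.1% to 40.5% and 0.365% to 1.93% of these cells. The other 723 cells (13.1%) met the rule on *Itgb4* and *Col17a1* without that excess. Among them *Trp63* was found in 0% to 10% and *Krt15* in 0.823% to 6.35%, and the *Trp63* share overlapped that of non-epithelial cells. By the list with most transcripts 234 of them were closest to endothelium, 114 to Schwann cells, 103 to fibroblasts, 103 to salivary or simple epithelium, 76 to skeletal muscle, 28 to lymphatic vessels, 26 to smooth muscle and 10 to immune cells, with 29 ties. Integrin beta 4 is also known from vessels and nerve sheaths. The share of epithelial basal cells was 67.6% in section 1, which was the lowest, and 95.1% in section 7, the highest, among the 6 sections with epithelium.

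Section 5 went against the label altogether. Its 30 cells held 166 *Itgb4* transcripts and 0 transcripts of *Col17a1*, *Krt5*, *Krt15* and *Trp63*, beside 57 of *Vwf*, 45 of *Cdh5* and 60 of *Ncmap*, which belong to vessels and myelinating Schwann cells. By the sum of 5 epithelial genes 4 of the 30 still counted as epithelial. The section held no remaining epithelium. It was left out of every comparison, which leaves 6 sections and 5487 cells, 4790 of them epithelial basal cells.

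The threshold cut through a mix of epithelial and other cells. Cells with exactly 4 *Itgb4* and *Col17a1* transcripts numbered 823 and those with exactly 3 numbered 1076. The 5 epithelial genes outnumbered the 10 others in 57.6% of the former and 36.4% of the latter. Among cells of the rule with 10 or more the share was 98.9%. Summed over these cells, *Krt5* stood at 50554 transcripts per 1000000 panel transcripts (CPM) just inside and 27123 CPM just outside, and *Vim*, a gene of connective tissue cells, at 55389 and 67265 CPM. At the border to the suprabasal layers the cells differed less, with 101741 CPM of *Krt5* in the 282 cells whose *Krt4* and *Tgm3* equalled *Itgb4* and *Col17a1*, and 99374 CPM in the 241 cells with 1 more.

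The comparison population was the remaining epithelium of the same sections, 16127 cells that did not meet the rule but held at least 4 transcripts of the 5 epithelial genes and more of these than of the 10 others. Genes of the rule and of both sums, 15 in all, chose the cells and are given without a test. *Krt5* stood at 85532 to 122907 CPM in epithelial basal cells (median 110970) and at 14568 to 22677 CPM in the remaining epithelium. *Col17a1* stood at 37758 to 48769 CPM against 2208 to 3067 CPM, and *Krt4* at 12070 to 20096 CPM against 101963 to 115654 CPM.

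Epithelial basal cells lined the border to the non-epithelial cells. These were cells outside the rule with at least 4 transcripts of the 10 other genes and more of these than of the 5 epithelial genes. They were not connective tissue alone. Across sections *Des*, a muscle gene, stood at 32697 to 181416 CPM in them. Summed fibroblast markers stood at 12308 to 55509 CPM, immune markers at 6078 to 24851 CPM and salivary or simple epithelium markers at 71.8 to 102267 CPM. The median distance from an epithelial basal cell to the nearest non-epithelial cell was 10.6 µm in the lowest section, 12.9 µm in the median and 15.6 µm in the highest, and in the remaining epithelium 22.3, 27.4 and 29.8 µm. The ranges did not overlap, and epithelial basal cells were closer in each of the 6 (exact permutation test by flipping signs of section differences, two-sided, p = 0.03125, the smallest that 6 sections allow, and 0.0391 after Benjamini-Hochberg adjustment over 5 measures). Within 15 µm of a non-epithelial cell lay 45.2% to 83.4% of the epithelial basal cells of a section (median 63.7%) and 11.1% to 27.9% of the remaining epithelium. For all cells of the rule the median distance was 10.2 to 13.9 µm, which takes in the cells of the rule that were not epithelial basal cells.

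**Figure D1:**
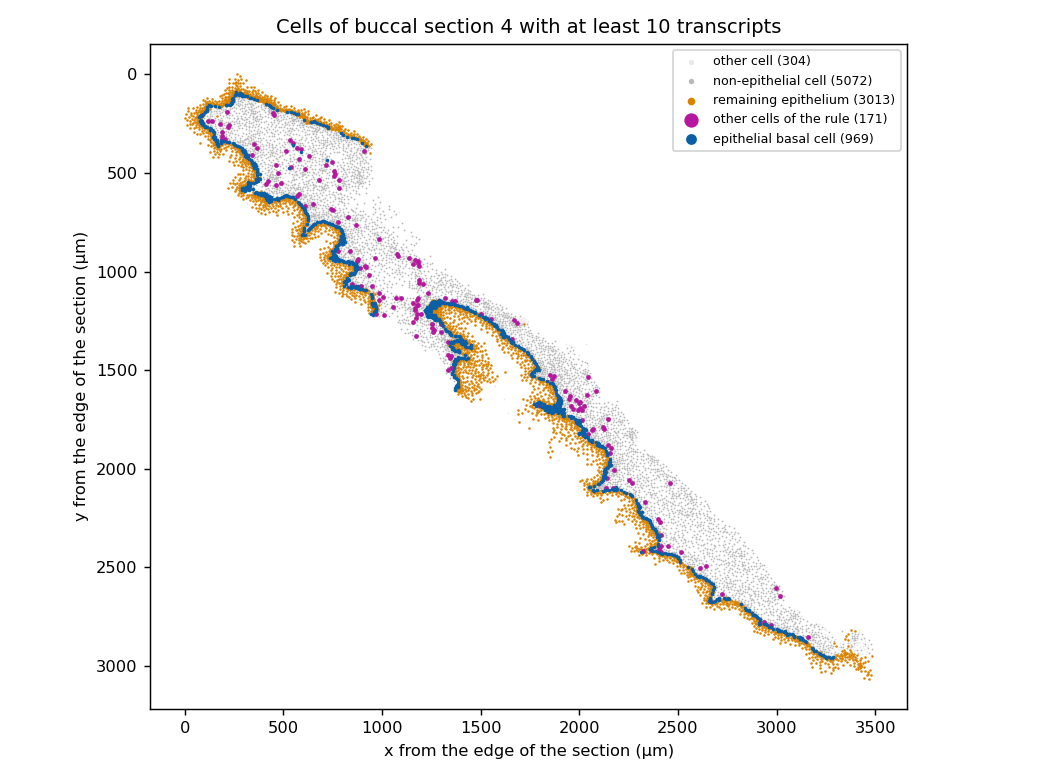
Positions of the cells of buccal section 4 with at least 10 transcripts, in µm from the edge of the section, coloured as epithelial basal cells (969), other cells that met the rule (171), remaining epithelium (3013), non-epithelial cells (5072) and other cells (304). The epithelial basal cells form a thin line between the remaining epithelium and the non-epithelial cells, and most of the other cells of the rule are scattered in the tissue beneath.

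Epithelial basal cells also lay beside each other and had smaller outlines. Of the 6 nearest cells of an epithelial basal cell 30.6% to 48.0% met the rule (median over sections 41.0%), against 9.44% to 17.0% around a cell of the remaining epithelium (higher in 6 of 6 sections). Neighbours were counted by the same rule that chose the cells, so this is a description. Median cell area was 58.0 ± 5.02 µm² in epithelial basal cells and 89.3 ± 12.0 µm² in the remaining epithelium (SD, n = 6 sections; adjusted p = 0.0391 in the exact permutation test used for distance, smaller in 6 of 6). Nucleus area, 22.1 ± 2.63 and 20.8 ± 2.73 µm², was larger in 4 of 6 sections and did not pass the test (p = 0.188, exact).

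Position was then used to set the sides of a comparison, whether or not a cell met the rule. The rule still entered the distance, since the non-epithelial cells were cells outside it. The epithelial cells compared had to hold at least 4 transcripts of the 5 epithelial genes, which include all genes of the rule. They also had to hold more of these than of the 10 others. All epithelial cells, basal by the rule or not, within 15 µm of a non-epithelial cell (near, 5765 cells) were compared with those beyond 30 µm (far, 7351 cells), with the section as a block. Of 226 genes tested 107 were higher near, 47.3% of the genes tested, and 84 were lower, 37.2% (edgeR quasi-likelihood test, Benjamini-Hochberg adjusted p under 0.05). Some genes, such as *Lgr6*, *Wnt6*, *Wnt10a* and *Dlk2*, were sparse far and passed the filter on low counts through the near side. The direction of a call is fixed for genes sparse on one side, and the counts by position hold such genes. Cells at the border held 58.1% basal cells within 10 µm (median of 6 sections, 39.8% to 62.0%), 49.4% from 10 to 15 µm, 28.0% from 15 to 20 µm, 15.2% from 20 to 30 µm, 5.43% from 30 to 50 µm and 0.856% from 50 to 100 µm.

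The split between higher and lower genes moved with the scaling. The folds given here use TMM factors. With library totals alone 159 genes were higher near and 48 lower, and the median over all genes rose by 1.64 on the log2 scale. DESeq2 gave 97 and 103. Under 4 scalings (TMM, totals alone, DESeq2 and transcripts per cell) 97 genes were higher and 48 lower in each. Of the genes named as higher or lower below, those that turned with library totals alone are marked where they stand.

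Against the remaining epithelium 104 of 241 genes were higher in the cells of the rule (43.2% of those tested) and 107 were lower (44.4%). With library totals alone the split was 156 higher and 54 lower, and the median over all genes rose by 1.60. With epithelial basal cells alone 102 of 221 were higher (46.2%) and 90 lower (40.7%). These cells were chosen by transcripts counted in the same cells, so the folds of epithelial basal cells over the remaining epithelium are given as a description, and the tests are those by position. Genes are not counted across the 2 comparisons. Some lower genes passed the filter only through the upper layers, where a lower call is fixed. Some higher genes passed it only through the basal or near side, where a higher call is fixed. The 2 comparisons share cells.

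For the 5487 cells of the rule in the 6 sections together, the 15 genes with the greatest positive fold belonged mostly to vessels, nerve and muscle. *Vwf*, *Cdh5*, *Adgrl4*, *Ackr1* and *Flt1* are endothelial genes, *Kcna1*, *Drp2* and *Scn7a* are found in Schwann cells or axons, and *Myh11* encodes smooth muscle myosin. *Vwf* stood at 0.00541 transcripts per epithelial basal cell and at 0.00929 per cell of the remaining epithelium (medians of 6 sections). Only *Tnc* and *Thbs1* of those 15 were also among the 15 greatest folds of epithelial basal cells, a second list made after the values had been seen. The description below therefore keeps to the 4790 epithelial basal cells. These were not free of other transcripts. Summed salivary or simple epithelium markers stood at 150 to 12450 CPM in them across sections (median 912), and at 563 to 2953 CPM in the remaining epithelium.

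**Figure D2:**
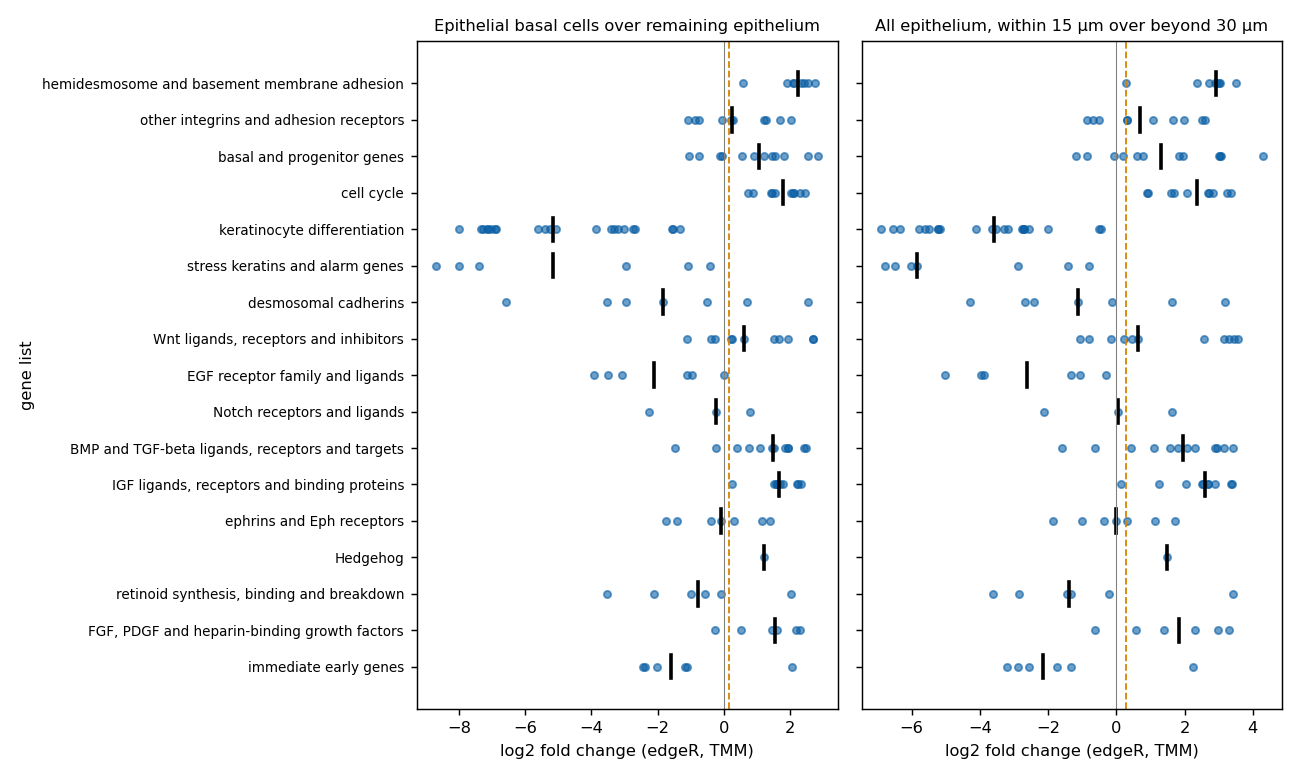
Log2 fold changes (edgeR, TMM) of the genes of 17 lists, one point a gene, in epithelial basal cells over the remaining epithelium (left) and in all epithelium within 15 µm over that beyond 30 µm of a non-epithelial cell (right). Black bars are list medians and the dashed line is the median of all genes tested, 0.15 on the left and 0.29 on the right. The medians of the adhesion, cell cycle and IGF lists lie to its right. The median of the differentiation list is not read, since some of its members passed the filter only through the upper layers.

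Genes of the basement membrane and its receptors were higher in the basal layer. The 8 genes of the list had a median log2 fold of 2.22 in epithelial basal cells, where the median of all genes tested was 0.15. This is a description, since *Itgb4* and *Col17a1*, 2 genes of the same adhesion structure, chose the cells. By position 7 of 8 were higher near, where 47.3% of all genes were, with a median of 2.93 against 0.29. *Itga6*, the partner of *Itgb4* in the hemidesmosome, stood at 1.27 to 1.87 transcripts per epithelial basal cell (median 1.47) and at 0.267 to 0.350 in the remaining epithelium. The ranges did not overlap, and by position the log2 fold was 3.01 (SE 0.30, edgeR adjusted p = 3.42e-06, higher near in 6 of 6 sections). *Itga3*, which pairs with *Itgb1* as a laminin receptor, stood at 0.487 to 0.896 against 0.0624 to 0.138 per cell and had a fold by position of 3.50 (SE 0.31, edgeR adjusted p = 1.3e-06). Laminin genes followed the same order. *Lama3*, a chain of laminin 332, stood at 0.785 to 1.54 transcripts per cell against 0.192 to 0.358, and *Lama5* at 0.801 to 1.35 against 0.147 to 0.211. *Col7a1*, the collagen of anchoring fibrils, had 0.582 to 1.07 transcripts per basal cell and 0.109 to 0.161 in the remaining epithelium. *Itgb6* was the gene of the list that did not pass by position, with a log2 fold of 0.29 (SE 0.21, edgeR adjusted p = 0.216). Non-epithelial cells held medians of 1.90 *Itgb1* and 0.318 *Itgb6* transcripts per cell, where epithelial basal cells held 1.12 and 0.0811. For *Itga6*, *Itga3*, *Lama3*, *Lama5* and *Col7a1* the non-epithelial medians were below those of epithelial basal cells, from 0.0332 (*Col7a1*) to 0.220 (*Lama5*).

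The matrix gene *Tnc* had the greatest positive fold in epithelial basal cells. It encodes tenascin C, a glycoprotein of growing and healing tissue. It stood at 0.422 to 1.18 transcripts per epithelial basal cell (median 0.688), at 0.0434 to 0.104 in the remaining epithelium and at a median of 0.0617 in non-epithelial cells. The basal sections lay above all others, with a log2 fold of 3.31 (SE 0.17), and by position of 3.72 (SE 0.40, edgeR adjusted p = 5.58e-06). *Tgfbi*, a secreted matrix protein induced by TGF-beta, stood at 1.32 to 2.58 against 0.219 to 0.511 transcripts per cell, and *Efemp1*, a fibulin, at 0.369 to 0.667 against 0.0642 to 0.100. Non-epithelial cells held medians of 0.367 *Tgfbi* and 0.0845 *Efemp1* transcripts.

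**Figure D3:**
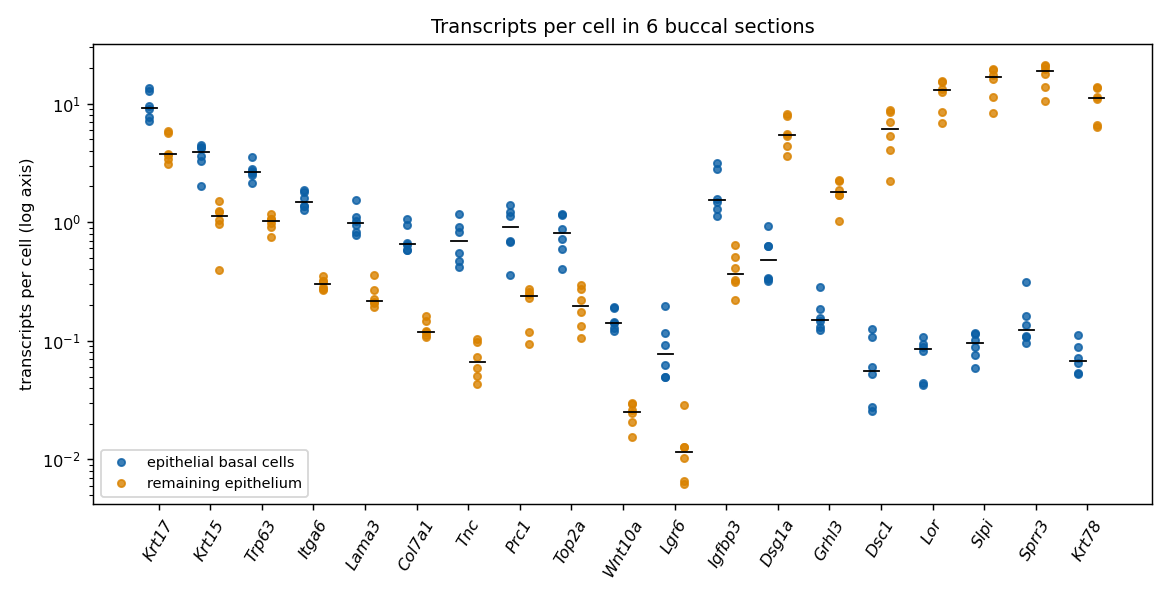
Transcripts per cell (log axis) of 19 genes in each of 6 buccal sections, blue for epithelial basal cells and orange for the remaining epithelium, with bars at the medians. For each gene shown the 6 basal sections lie apart from the 6 sections of the remaining epithelium, above them from *Krt17* to *Igfbp3* and below them from *Dsg1a* to *Krt78*. The 19 genes were picked for display, so this is no count over all genes. Ranges overlapped for others named in the text, such as *Krt16*, *Dsc3*, *Sox2*, *Wnt4*, *Wnt16* and *Egfr*.

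Keratins and transcription factors of the basal state fell into separate patterns. *Krt15*, a basal keratin that marks slow-cycling cells in several epithelia, stood at 2.00 to 4.50 transcripts per epithelial basal cell (median 3.92) and 0.398 to 1.50 in the remaining epithelium. The ranges did not overlap. Its log2 fold by position was 3.01 (SE 0.20, edgeR adjusted p = 1.78e-07). *Trp63*, the regulator of stratified epithelial identity, stood at 2.14 to 3.57 against 0.754 to 1.16 transcripts per cell, and the fold by position was 1.97 (SE 0.21, edgeR adjusted p = 4.72e-06). *Krt17* stood at 7.12 to 13.5 against 3.09 to 5.90, and its fold by position, 0.77 (SE 0.15, edgeR adjusted p = 0.000697), was smaller than that of *Krt15*. The paper counts *Krt17* with *Krt6a* and *Krt16* among the keratins of activated keratinocytes. *Krt17* went the other way from *Krt16*, which stood at 0.0835 to 1.16 against 0.574 to 3.64 transcripts per cell. *Lgr6*, a Wnt pathway receptor found in epithelial progenitors, was sparse, at 0.0492 to 0.196 transcripts per basal cell and 0.00626 to 0.0285 in the remaining epithelium. It had the greatest positive fold by position among the genes named here, 4.31 (SE 0.38), though non-epithelial cells held a median of 0.0172 transcripts. In far cells it stood at 0 to 0.00820 per cell, and it passed the filter only through the near side. A higher call was therefore fixed, and the fold is a description. *Dlk2*, a gene of the Notch ligand family, stood at 0.0462 to 0.0970 against 0.00879 to 0.0150.

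*Sox2* and *Pitx1*, transcription factors of oral epithelium, did not mark the basal layer in these sections. *Sox2* stood at 0.785 to 1.15 transcripts per epithelial basal cell and at 0.869 to 1.19 in the remaining epithelium, ranges that overlapped. By position its log2 fold was -0.07 (SE 0.14, edgeR adjusted p = 0.629), and with library totals alone it turned to 1.58. *Pitx1*, the gene that the study induces in skin, stood at 0.0948 to 0.176 transcripts per epithelial basal cell (median 0.152) and at 0.199 to 0.271 in the remaining epithelium. It was lower near by 0.87 on the log2 scale (log2 fold -0.87, SE 0.16, edgeR adjusted p = 0.00035) and turned to 0.78 with library totals alone. Per cell *Pitx1* rose from a median of 0.113 transcripts within 10 µm to 0.242 at 20 to 30 µm. *Barx2*, a homeobox gene of oral and other epithelia, stood at 1.35 to 1.97 against 1.89 to 4.22 transcripts per cell, with a fold by position of -1.18 (SE 0.14) that turned to 0.47 with library totals alone. Of the 14 basal and progenitor genes listed, 12 were tested by position, 7 were higher near and 2 lower, where 47.3% and 37.2% of all genes tested were. The share higher is near that background.

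Cell cycle genes were higher in the basal layer throughout the list. All 10 were higher near (median log2 fold 2.38 against 0.29 over all genes), where 47.3% of all genes were higher. In epithelial basal cells the median log2 fold was 1.77 against 0.15 over all genes, as a description. *Top2a*, the topoisomerase of dividing cells, stood at 0.399 to 1.17 transcripts per epithelial basal cell (median 0.804) and at 0.105 to 0.295 in the remaining epithelium. By position its log2 fold was 2.70 (SE 0.24, edgeR adjusted p = 1.47e-06). *Prc1*, needed for the division of the cell body, stood at 0.356 to 1.39 against 0.0944 to 0.276, and *Cenpf*, a kinetochore gene, had a fold by position of 3.25 (SE 0.29). *Ezh2*, a chromatin silencer that dividing cells hold, had the smallest fold of the list by position, 0.90 (SE 0.14, edgeR adjusted p = 0.000118).

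Summed over the 10 genes, cell cycle transcripts made up 42848 ± 10224 CPM of the genes tested in epithelial basal cells and 6335 ± 2335 CPM in the remaining epithelium (SD, n = 6 sections), higher in 6 of 6, as a description of cells chosen by their own transcripts. To compare shares of cells at equal depth, each cell was reduced to 30 transcripts. A cell cycle transcript was then expected in 32.6% to 53.1% of epithelial basal cells (median 43.0%), 12.5% to 20.4% of the remaining epithelium and 14.9% to 26.2% of non-epithelial cells. The epithelial basal cells lay above both others in every section. The remaining epithelium lay above the non-epithelial cells in sections 1, 2, 4 and 7 and below them in sections 3 and 6, with 12.8% against 26.2% in section 6. Without the reduction the shares were 61.8% to 80.4%, 40.7% to 56.2% and 29.8% to 41.1%, at median depths of 123, 199 and 72 transcripts, and cells under 30 transcripts that were left out numbered 23, 366 and 4204.

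Genes of differentiation differed in level within the basal layer, and those described here were lower than in the remaining epithelium. Of 25 listed, 22 passed the filter on low counts against the remaining epithelium, and 14 passed it within epithelial basal cells. The others had enough counts in the upper layers alone, where a lower call is fixed by the filter, and the levels of the members below are given with no count over the list. *Lor*, the cornified envelope protein loricrin, stood at 0.0427 to 0.108 transcripts per epithelial basal cell and 6.92 to 15.4 in the remaining epithelium. The ranges lay far apart, and by position the log2 fold was -5.61 (SE 0.23, edgeR adjusted p = 6.06e-09). *Sprr3*, a small proline-rich envelope protein, stood at 0.0950 to 0.311 against 10.5 to 21.2, and *Krt78*, a keratin of upper oral layers, at 0.0521 to 0.111 against 6.35 to 13.8. Other members of the list had more transcripts in basal cells, with *Sprr2a3* at 0.247 to 2.13 and *Gsdmc* at 0.229 to 1.12 per epithelial basal cell. *Klf4* and *Grhl3* encode transcription factors of the barrier program and showed smaller differences. *Klf4* stood at 0.271 to 0.596 against 1.93 to 3.61 transcripts per cell and *Grhl3* at 0.123 to 0.286 against 1.03 to 2.28, with folds by position of -2.71 (SE 0.15) and -2.55 (SE 0.17).

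Most genes of alarm and defence had few counts in the basal layer, with 4 of 10 listed passing the filter within epithelial basal cells and 7 by position. *Krt6a* and *Il1rn* had the most transcripts of the list in cells of the rule, and their levels are not given here. *Slpi*, a secreted inhibitor of leukocyte proteases, stood at 0.0590 to 0.116 transcripts per epithelial basal cell against 8.30 to 19.7, with a fold by position of -5.83 (SE 0.24, edgeR adjusted p = 6.24e-09). *Il1f6*, the cytokine IL-36 alpha, had 33 transcripts in all cells of the rule and passed the filter only through the remaining epithelium, at 0.00267 to 0.0185 transcripts per epithelial basal cell against 1.82 to 3.80. *Arg1*, the enzyme arginase 1, stood at 0.00308 to 0.0369 against 2.73 to 5.57. *Krt16*, a keratin of activated epithelium, stood at 0.0835 to 1.16 transcripts per epithelial basal cell and at 0.574 to 3.64 in the remaining epithelium, and these ranges overlapped. By position its log2 fold was -2.89 (SE 0.21, edgeR adjusted p = 3.28e-07).

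Desmosomal cadherins, which join keratinocytes to each other, split by member. *Dsg2* stood at 0.216 to 0.449 transcripts per epithelial basal cell and at 0.0400 to 0.0692 in the remaining epithelium, and its log2 fold by position was 3.18 (SE 0.32, edgeR adjusted p = 3.03e-06). *Dsc3* stood at 2.18 to 4.17 against 1.32 to 2.39, ranges that overlapped, with a fold by position of 1.64 (SE 0.25, edgeR adjusted p = 8.39e-05). Both were higher near in 6 of 6 sections. *Dsc1* stood at 0.0254 to 0.125 against 2.24 to 8.81 and *Dsg1a* at 0.320 to 0.932 against 3.64 to 8.14, with folds by position of -4.27 (SE 0.16) and -2.68 (SE 0.16). *Dsc2* stood at 0.672 to 1.36 against 2.63 to 4.52 per cell, and its fold by position, -1.14 (SE 0.19), turned to 0.51 with library totals alone. Of 7 tested by position 2 were higher near and 4 lower, against 47.3% and 37.2% of all genes tested, and 7 genes are too few to set the list apart.

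**Figure D4:**
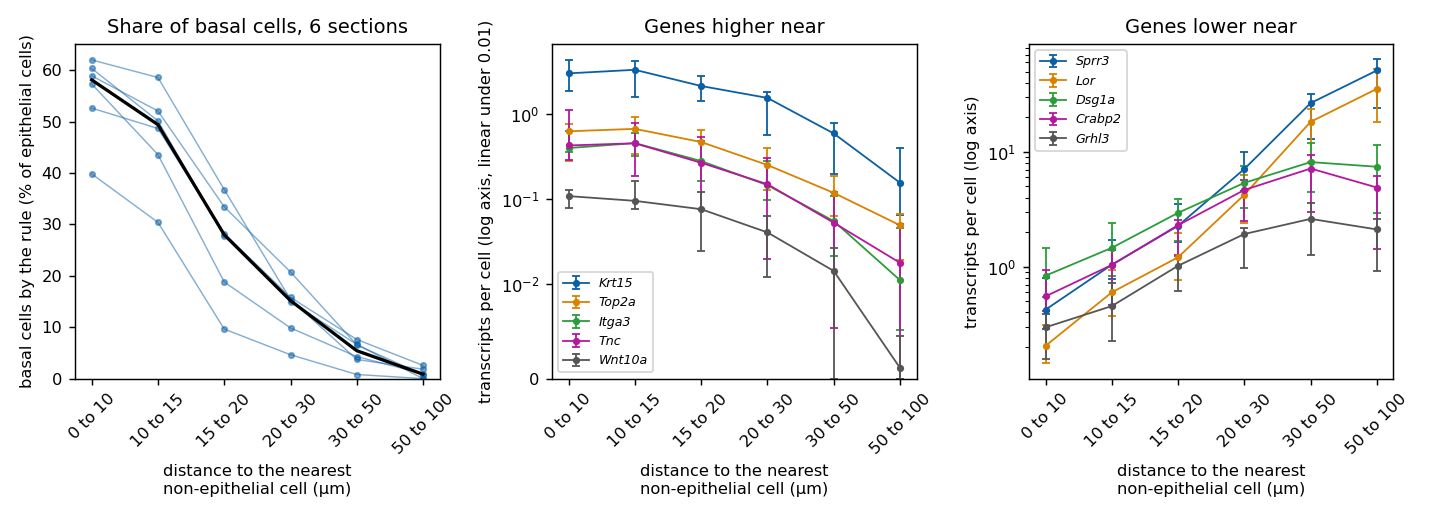
Left, basal cells by the rule as percent of epithelial cells in bins of distance to the nearest non-epithelial cell (µm), thin lines for 6 sections and a thick line for the median. Middle and right, transcripts per epithelial cell (log axis, linear under 0.01 in the middle panel) of 5 genes higher near and 5 lower near, points at the median of 6 sections and bars from the lowest to the highest section. The basal share falls from 58.1% to 0.856%, and *Krt15* falls from a median of 2.98 to 0.155 per cell where *Sprr3* climbs from 0.423 to 51.2.

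The 2 retinoic acid binding proteins lay on opposite sides. *Crabp1* stood at 0.0646 to 0.231 transcripts per epithelial basal cell and 0.0203 to 0.0501 in the remaining epithelium, with a log2 fold by position of 3.41 (SE 0.45, edgeR adjusted p = 2.53e-05). *Crabp2* stood at 0.274 to 0.592 against 2.30 to 5.93, with a fold of -2.86 (SE 0.16, edgeR adjusted p = 3.85e-08). Neither pair of ranges overlapped. Non-epithelial cells held a median of 0.0885 *Crabp1* transcripts per cell.

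Among Wnt genes 7 of 11 tested were higher near and 2 lower, where 47.3% and 37.2% of all genes were, with a median log2 fold of 0.63 against 0.29. *Wnt10a*, a ligand of epithelial progenitors, stood at 0.121 to 0.194 transcripts per epithelial basal cell and 0.0156 to 0.0297 in the remaining epithelium. *Wnt6* stood at 0.0400 to 0.109 against 0.00688 to 0.0156. In far cells *Wnt10a* stood at 0 to 0.0183 and *Wnt6* at 0.00160 to 0.00806 per cell, and both passed the filter through the near side. Their log2 folds by position, 3.58 (SE 0.35) and 3.44 (SE 0.28), are therefore given as a description. *Wnt16* varied more between sections. It stood at 0.0680 transcripts per epithelial basal cell in the lowest section, 0.430 in the median and 0.923 in the highest, and at 0.0246 to 0.295 in the remaining epithelium, so the ranges overlapped although the log2 fold by position was 3.31 (SE 0.33). *Wnt4* stood at 1.38 to 3.07 against 1.49 to 3.82, and its fold by position of -0.80 (SE 0.15) turned to 0.86 with library totals alone.

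Genes of the BMP and TGF-beta families were mostly higher at the border, 10 of 12 by position, where 47.3% of all genes tested were higher. The median log2 fold by position was 1.94 against 0.29 over all genes. In epithelial basal cells it was 1.48 against 0.15, as a description. *Sostdc1*, an inhibitor of BMP and Wnt signals, stood at 0.0862 to 0.393 transcripts per epithelial basal cell against 0.0263 to 0.0540, with a fold by position of 3.42 (SE 0.24, edgeR adjusted p = 2.13e-07). The ligand gene *Bmp4* stood at 0.164 to 0.450 against 0.0451 to 0.0959 with a fold by position of 2.96 (SE 0.20), and at a median of 0.144 in non-epithelial cells. *Id3*, a target of BMP signals, stood at 0.483 to 0.760 against 0.137 to 0.268 per cell, and at a median of 0.437 in non-epithelial cells. *Id1*, a related target, went the other way, with a fold by position of -1.60 (SE 0.18, edgeR adjusted p = 6.96e-06) that turned to 0.048 with library totals alone.

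IGF genes were higher near in 9 of 10 cases, where 47.3% of all genes tested were, with a median log2 fold of 2.60 against 0.29. The receptor gene *Igf1r* stood at 0.508 to 1.17 transcripts per epithelial basal cell and 0.164 to 0.305 in the remaining epithelium, with a fold by position of 2.52 (SE 0.22, edgeR adjusted p = 1.3e-06). The binding protein *Igfbp3* stood at 1.12 to 3.18 against 0.221 to 0.643, and *Igfbp2* at 1.63 to 3.86 against 0.560 to 1.19. *Igfbp3* was found in non-epithelial cells too, at a median of 0.339 transcripts per cell beside 0.368 in the remaining epithelium. Other members were genes of the tissue beneath as well. Non-epithelial cells held a median of 5.23 *Igfbp5* and 0.484 *Igf2* transcripts, where epithelial basal cells held 0.883 and 0.0841. *Igf2r* did not pass the test, with a fold of 0.15 (SE 0.14, edgeR adjusted p = 0.341).

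Ligands of the EGF receptor were lower in the basal layer. *Hbegf* stood at 0.0160 to 0.0680 transcripts per epithelial basal cell and 0.295 to 0.546 in the remaining epithelium, and *Tgfa* at 0.0200 to 0.136 against 0.240 to 0.449. Neither pair of ranges overlapped, and their folds by position were -3.98 (SE 0.16, edgeR adjusted p = 6.06e-09) and -3.88 (SE 0.25, edgeR adjusted p = 1.18e-07). *Areg* was at 0 in 4 of 6 basal sections and had enough counts for the test only away from the border, so no count over the family is given. The receptor gene *Egfr* stood at 1.08 to 1.73 per epithelial basal cell and 0.973 to 1.58 in the remaining epithelium, which overlapped, and did not pass by position (log2 fold -0.29, SE 0.15, edgeR adjusted p = 0.0892, turning to 1.36 with library totals alone). Notch receptors parted in the same way as the cadherins. *Notch1* stood at 0.806 to 1.41 against 0.418 to 0.831 and *Notch2* at 0.0788 to 0.180 against 0.466 to 0.754, with folds by position of 1.62 (SE 0.19, edgeR adjusted p = 8.89e-06) and -2.11 (SE 0.15, edgeR adjusted p = 3e-07).

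Of the other growth factor genes 5 of 6 tested were higher near and 1 lower, beside 47.3% and 37.2% of all genes, and 6 genes are too few to set the list apart. *Ptn*, the heparin-binding factor pleiotrophin, stood at 0.590 to 1.22 transcripts per epithelial basal cell against 0.111 to 0.203, and *Fgfr2*, a receptor of keratinocyte growth factors, at 0.785 to 1.31 against 0.283 to 0.395. Their folds by position were 3.29 (SE 0.29) and 2.30 (SE 0.21). Of the ephrins and their receptors 2 of 7 were higher near (*Efnb1* and *Ephb4*), where 47.3% of all genes were. Another 2 were lower, where 37.2% of all genes were (*Ephb3* and *Efna3*). Neither of these was called lower under each of the 4 scalings, and the sign of *Efna3* turned with library totals alone, to 0.64. Of 6 immediate early and stress genes tested by position 5 were lower near, where 37.2% of all genes were, and 6 genes are too few to set the list apart. *Jun* was lower under each of the 4 scalings, and the sign of *Dnajb1*, another of the list, turned with library totals alone. *Jun* stood at 0.0814 to 0.274 against 0.622 to 1.30 per cell and *Ccn1*, which was higher, at 0.0374 to 0.220 against 0.0130 to 0.0378.

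Transcripts of connective tissue moved with the border. Of the fibroblast markers 5 of 5 tested were higher near, where 47.3% of all genes were, with a median log2 fold of 2.43 against 0.29. The summed fibroblast markers stood at 3507 to 6336 CPM in the epithelial basal cells of a section, 1295 to 2077 CPM in the remaining epithelium and 12308 to 55509 CPM in non-epithelial cells, with none of the 7 genes at 0 in any of these sets of cells. The part of connective tissue transcripts in the results by position was not tested. Genes that were at or below a median of 0.02 transcripts per non-epithelial cell and higher near include *Krt15* (0.0174), *Top2a* (0.0195), *Wnt10a* (0.0044), *Cdh3* (0.00515), *Dlk2* (0.000905) and *Dsc3* (0.0110), chosen after their values were seen, with 0.0336 for *Top2a* in section 1 as the highest value of any section. *Dsg2* and *Fgfr2* had low medians too (0.00213 and 0.0125) but stood at 0.818 and 0.303 in the non-epithelial cells of section 1, where epithelial basal cells held 0.216 and 0.880. Both were called by position without section 1 as well. The non-epithelial cells of section 1 also held 1.81 *Sox2* transcripts per cell, where those of the other sections held 0.0113 to 0.0237. What cells these are was not tested.

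Basal cells were also compared among themselves by position. Of the cells of the rule 3646 lay within 15 µm of a non-epithelial cell and 1841 farther away, and 32 of 203 genes were higher near (15.8%) and 6 lower (2.96%). DESeq2 gave 48 and 25, and the 38 calls became 85 without section 1 and 18 without section 3 or 4. Vessel genes led that list, with *Flt1* at a log2 fold of 3.34 (SE 0.60) and *Vwf* at 3.24 (SE 0.57). Among epithelial basal cells, 2985 near and 1805 far, 24 of 184 genes were higher near (13%) and 16 lower (8.7%). The split was 31 and 13 with library totals alone, 33 and 4 with transcripts per cell, and 14 and 11 with DESeq2. The counts also moved with single sections. Leaving out sections 3, 4, 6 or 7 lowered the 40 calls to 16, 10, 18 and 24, and 9 of the 40 were kept whichever section was left out. With transcripts over the nucleus alone 8 genes were called, and without the section as a block edgeR called 0, with 27 of 184 at an unadjusted p under 0.05.

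The 3 of those 9 genes that were lower near were each also lower in the basal layer than in the remaining epithelium. *Crabp2* stood at 0.220 to 0.407 transcripts per epithelial basal cell near (median 0.262) and at 0.352 to 0.861 far (median 0.402). The ranges overlapped, and it was lower near in 6 of 6 sections, with a log2 fold of -0.76 (SE 0.14, edgeR adjusted p = 0.00544). *Dsc2* stood at 0.615 to 1.14 near and 0.789 to 1.66 far, with a fold of -0.48 (SE 0.07, edgeR adjusted p = 0.0022). *Dsg1a* stood at 0.248 to 0.846 near and 0.355 to 1.08 far, with a fold of -0.48 (SE 0.09, edgeR adjusted p = 0.00544). Each was lower near in 6 of 6 sections, and each was called with transcripts over the nucleus alone too.

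The 6 that were higher near were *Igf1r*, *Igf1*, *Igfbp5*, *Mmp2*, *Pdgfra* and *Timp3*. *Pdgfra* and *Igf1* were sparse in far cells, at 0 to 0.0372 and 0.00648 to 0.0292 transcripts per cell. These 2 genes passed the filter mainly through the near side, which favours a higher call. *Igf1r* stood at 0.602 to 1.24 transcripts per cell near and 0.430 to 1.06 far, higher in 6 of 6 sections, with a log2 fold of 0.30 (SE 0.07, edgeR adjusted p = 0.0148). It was also called with transcripts over the nucleus alone, and not with DESeq2. The other 5 are genes of fibroblasts or their matrix and were not called over the nucleus alone. Fibroblast markers moved with them, 4 of 5 tested being higher near, where 13% of all genes were. Their median log2 fold was 1.22 against 0.0027 over all genes, and *Pdgfra* is among these markers. *Krt15* stood at 2.40 to 5.06 near and 1.68 to 4.30 far, with a fold of 0.35 (SE 0.08, edgeR adjusted p = 0.0148) that lost the call without section 4 or 6. The cell cycle list had 0 of 10 genes called in edgeR, 0 at an unadjusted p under 0.05 and 0 called in DESeq2, where 13% of all genes were higher and 8.7% lower, a background at which 10 genes hold few calls. Its median log2 fold was -0.08 where that of all genes tested was 0.0027. Adhesion genes of the basement membrane likewise had 0 of 8 by each of these counts, with *Itga3* at 0.07 (SE 0.07) and *Col7a1* at -0.07 (SE 0.07).

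Levels in epithelial basal cells were close from section to section for most genes with enough counts in each section. In the 89 genes with at least 50 transcripts in each section the highest section exceeded the lowest by a median of 1.61-fold, and by less than 2-fold in 71. The smallest ratios were those of *Dnajb1*, a heat shock cochaperone (1.11-fold), *Egfr* (1.15-fold), *Arf6* (1.16-fold), *Erbb2* (1.19-fold) and *Notch1* (1.20-fold). *Trp63* stood at 19055 to 22947 CPM in the 6 sections. Among the 89 genes the greatest ratios were those of *Krt16*, *Sprr2a3*, *Gsdmc*, *Prc1* and *Cenpf*. Genes with fewer counts in a section were not ranked, such as *Wnt16*, at 0.0680 to 0.923 transcripts per epithelial basal cell. *Krt16* stood at 9131 CPM in section 1 and at 688 to 2287 CPM in the others, a ratio of 13.3. *Sprr2a3*, a small proline-rich protein, stood at 17546 CPM in section 7 and 13027 CPM in section 2 but at 1749 CPM in section 3, and *Gsdmc*, a gasdermin, followed it with 9201, 8693 and 1621 CPM in those sections. *Prc1* and *Cenpf* were highest in section 2 (9945 and 4484 CPM) and lowest in section 6 (3343 and 1578 CPM). With 6 sections on 1 slide and no label for the animal or sex of a section, these differences were not tested.

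**Figure D5:**
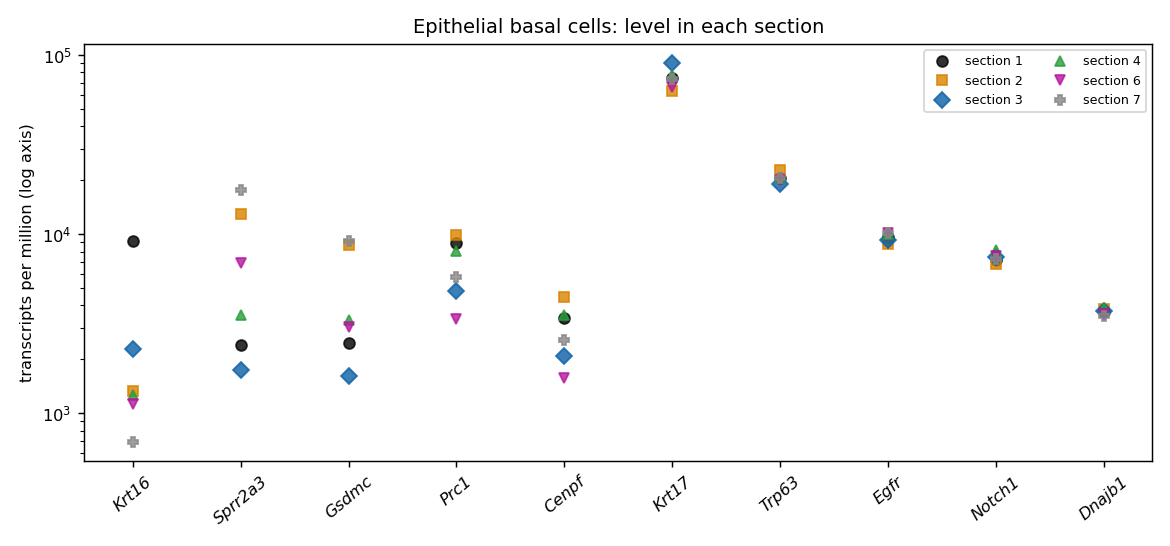
CPM of panel transcripts (log axis) of 10 genes in the epithelial basal cells of each of 6 sections, one symbol a section. *Krt16* spreads 13.3-fold with section 1 on top, where *Dnajb1* spreads 1.11-fold.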

How the data were processed

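The authors deposited Xenium output for 4 slides: counts of panel transcripts per outlined cell, with cell positions and areas as other values, and a list of decoded transcripts with a quality score. Segmentation settings are not given in the sources used here. Buccal transcripts that reached a quality score of 20 were summed per cell, which gave the deposited counts in 100% of cells, and then per section and set of cells. Cells needed at least 10 transcripts, and sections were cells chained within 100 µm, with at least 2000 cells. Sums were tested with the edgeR 4.0.16 quasi-likelihood test (filterByExpr, TMM, robust fit, section as a block) in R 4.3.3, with Benjamini-Hochberg adjustment over all genes tested and a threshold of 0.05. Library totals were sums over the genes tested, and the 15 genes that chose cells were left out. Measures per section, given for epithelial basal cells and computed for all cells of the rule too, were tested with a two-sided exact sign-flip permutation test in Python 3.11.15 with scipy 1.17.1. CPM is per 1000000 panel transcripts unless said otherwise.

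The section was a block because both sets of cells of a pair lie in the same piece of tissue. The members and gene lists were chosen with earlier results of these data known. Any listed gene could be named, with fuller values for genes of large change and for abundant members of each list. DESeq2 1.42.0, other totals, no filter, no block, single sections left out, transcripts over the nucleus only and other limits were the alternatives. The comparison of epithelial basal cells by position and the scaling per cell were added after seeing the data. Scripts were tested on simulated data. The 3 skin slides served for the number of cells alone.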

Additional observations from a re-analysis of the deposited data

Results flagged for a closer look

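For 10 of 91 values per gene in the epithelial basal cells of the 6 sections, 1 section stood apart from the other 5, with a gap to the nearest section above 0.625 of the whole range. Chance flags about 1 in 20 such groups. Section 1, which held the fewest basal cells, had 1.16 *Krt16* transcripts per cell where the others had 0.0835 to 0.323, 0.136 of *Tgfa* (others 0.0200 to 0.0557) and 0.068 of *Areg* (others 0 to 0.00164). Section 4 had 0.497 *Ezh2* transcripts per cell (others 0.260 to 0.345), 1.73 of *Egfr* (others 1.08 to 1.31) and 0.453 of *Mmp2* (others 0.222 to 0.297). Taken over all cells of the rule, section 4 also held the most transcripts, a median of 159 per cell where the other 5 sections had 96 to 134.5. Per 1000000 panel transcripts of its epithelial basal cells section 4 did not stand apart, with 2872 of *Ezh2* (highest other section 2806), 9985 of *Egfr* (highest other 10180) and 2615 of *Mmp2* (highest other 2604). Section 7 had 0.0369 of *Arg1* (others 0.00308 to 0.0120), 0.0794 of *Id1* (others 0.0298 to 0.0440) and 0.550 of *Timp3*, a gene of connective tissue (others 0.0677 to 0.154). Section 2 had 0.311 of *Sprr3* (others 0.0950 to 0.161).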

How the results depend on the processing

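The 211 calls against the remaining epithelium and the 191 by position stayed within 1.5 times of these counts under the alternatives run, with 204 to 222 and 185 to 192 when single sections were left out and 204 and 183 without the section as a block. The 38 calls among all basal cells near and far came to 65 with totals over all panel genes, 73 with DESeq2, 25 with transcripts over the nucleus only, 19 without the section as a block, and 18 to 85 when single sections were left out (85 without section 1, 18 without section 3 or 4). The 40 calls among epithelial basal cells came to 25 with DESeq2, 8 with transcripts over the nucleus only, 10 to 37 when single sections were left out, and 0 in the edgeR test without the section as a block, where 27 of 184 genes had an unadjusted p under 0.05. With 5 sections the smallest p of the exact permutation test is 0.0625, so no measure could pass. For all cells of the rule the mean differences then ran from -15.5 to -14.4 µm for distance, -30.4 to -24.1 µm² for cell area, 20.6 to 23.2 percentage points for neighbours and 29345 to 32924 CPM for cell cycle transcripts. With library totals alone the log2 folds of the cells of the rule turned for *Pitx1* (0.32), *Sox2* (0.99), *Dsc3* (1.57), *Wnt4* (0.49), *Egfr* (0.94) and *Mmp2* (0.93), and *Dsc3* turned also per cell (0.48), in epithelial basal cells (0.70) and with at least 6 transcripts of the rule (0.38). *Krt15* near against far turned to 0.35 in epithelial basal cells. By position *Pitx1* (0.78), *Sox2* (1.58), *Barx2* (0.47), *Dsc2* (0.51), *Wnt4* (0.86), *Id1* (0.048), *Egfr* (1.36), *Efna3* (0.64), *Dnajb1* (0.33), *Arf6* (0.16) and *Erbb2* (0.57) turned with library totals alone, and the cause was not tested. All sections lay on 1 slide, and genes with few transcripts in the smaller sections limit what could be tested.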
